A study of Mus musculus with 69 samples.

Results

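Mitosis and DNA replication genes were followed in CJ7, a line of embryonic stem (ES) cells of the mouse, and in the embryoid bodies that these cells form when they are left to differentiate as aggregates. The set was chosen by name and holds 38 of the 15924 genes with values in any of 3 RNA-seq tables: 27 that act in mitosis and 11 that act in DNA replication. All 38 are listed in each table, and all 38 passed the filter on low values, which asks for 0.5 RPKM (reads per kilobase of gene, scaled to library size) in 2 libraries, or in 3 in the mutant and wild-type table.

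In replated cultures, embryoid bodies were moved into ES cell medium for 5 days and collected at day 14. These groups carry the names of 2 treatments, one given before replating and one given after it: GSK343 then GSK343 (2 libraries), GSK343 then DMSO, DMSO then GSK343 and DMSO then DMSO (3 libraries each). GSK343, a small-molecule inhibitor of the histone methyltransferase EZH2, was used at 4 µM, and DMSO is its vehicle. Cells started in GSK343 were given it from 3 days before differentiation, and DMSO then GSK343 cells only after replating. A further 12 libraries are of cells treated with GSK343 or DMSO as ES cells (day 0) and as embryoid bodies at day 4 and day 8, with 2 libraries a group. The other 18 are of EZH2-mutant and wild-type cells at the same stages, with 3 libraries a group. The labels give no allele for the mutant, and do not say whether replicates came from separate cultures, so p-values measure only the spread between these libraries, which may be technical. ES cells were grown on mouse fibroblast feeder cells, and embryoid bodies were formed in hanging drops.

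Depth was 2.27 to 8.34 M (mega) recovered reads in replated libraries, 5.01 to 22.0 M in the GSK343 and DMSO series, and 7.17 to 28.5 M in the mutant and wild-type series. Ezh2 itself was at 18.3 to 26.5 RPKM in the 9 mutant libraries and 37.2 to 62.5 RPKM in the 9 wild-type libraries. Some libraries stood apart. DMSO then DMSO library 1 correlated best, over all genes kept other than the 38, with GSK343 then GSK343 library 1 (Pearson's r = 0.951 on log2 values), against 0.913 at most with its own group. GSK343 then GSK343 libraries 1 and 2 correlated at r = 0.789 with each other. DMSO then GSK343 library 2 correlated at 0.888 with GSK343 then DMSO library 3, against 0.879 at most with its own group. Wild-type day 4 library 2 had 57.9% of its reads on the ribosomal RNA gene Rn45s, against 11.4% and 4.08% in libraries 1 and 3. In wild-type day 8 embryoid bodies, library 3 had 222 RPKM of the pluripotency gene Pou5f1, against 27.8 and 28.7 RPKM in libraries 1 and 2.

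Cells copy their DNA in S phase and divide it in mitosis, and the genes for both programmes are switched on in cycling cells. Replication genes such as those of the MCM helicase, which unwinds DNA at origins, are textbook targets of E2F factors in late G1. Mitosis genes are switched on later, in G2, through promoters that often carry CCAAT boxes and a CHR element bound by the MuvB complex with B-Myb or FoxM1. Mouse ES cells have a short G1 and express both sets at high levels, and many cells leave or lengthen the cycle as they differentiate. In bulk RNA, fewer cycling cells and less RNA per cycling cell cannot be told apart.

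The promoters of both classes were compared because the set falls into these 2 textbook groups. RefSeq promoters (build GRCm38.p6, 250 bases before to 50 after the transcription start) were matched for 33 of the 38 genes, 35 promoters in all. A CHR (TTTGAA or TTCGAA, both strands) was found in 79.2% of 24 mitosis promoters, 18.2% of 11 replication promoters and 19.2% of all 32851 promoters in the reference table. CCAAT was found on either strand in 79.2% of mitosis promoters, 72.7% of replication promoters and 37.4% of all promoters. An E2F motif (TTTCCCGC, TTTCGCGC, TTTGCCGC or TTTGGCGC, both strands, where matches may overlap each other) was found in 4.17% of mitosis promoters, 54.5% of replication promoters and 2.26% of all promoters. The only mitosis promoter with an E2F match was that of Cdk1, and the replication genes with one were Cdc6, Cdt1, Mcm3, Mcm5, Mcm6 and Mcm7. A match is a description of these letters and not a measured binding site.

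The 250 bases before the start are shown for 3 mitosis genes and 2 replication genes, picked after the search because they show the contrast between the classes. Capitals mark the matches on either strand, which are CHR, CCAAT box (read as ATTGG on the other strand) or E2F motifs, the last being the runs that hold GCGC.
Top2a, chr11:99024190-99024439, minus strand: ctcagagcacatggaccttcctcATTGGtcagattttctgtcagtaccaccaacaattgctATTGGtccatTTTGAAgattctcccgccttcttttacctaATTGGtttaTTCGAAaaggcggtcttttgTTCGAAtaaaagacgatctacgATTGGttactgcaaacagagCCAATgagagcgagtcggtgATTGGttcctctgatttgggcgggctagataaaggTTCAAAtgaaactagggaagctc
Cdc20, chr4:118437344-118437593, minus strand: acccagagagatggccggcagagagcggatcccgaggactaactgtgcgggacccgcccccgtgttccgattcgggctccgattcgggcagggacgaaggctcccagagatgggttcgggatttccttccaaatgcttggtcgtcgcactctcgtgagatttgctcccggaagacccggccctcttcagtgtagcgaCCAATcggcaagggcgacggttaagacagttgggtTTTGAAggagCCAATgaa
Cdk1, chr10:69352913-69353162, minus strand: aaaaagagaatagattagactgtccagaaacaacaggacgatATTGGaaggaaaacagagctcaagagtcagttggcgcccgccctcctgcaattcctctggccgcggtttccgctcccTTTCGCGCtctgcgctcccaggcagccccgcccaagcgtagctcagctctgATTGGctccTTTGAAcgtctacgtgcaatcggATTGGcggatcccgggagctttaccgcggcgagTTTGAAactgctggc
Mcm5, chr8:75109259-75109508, plus strand: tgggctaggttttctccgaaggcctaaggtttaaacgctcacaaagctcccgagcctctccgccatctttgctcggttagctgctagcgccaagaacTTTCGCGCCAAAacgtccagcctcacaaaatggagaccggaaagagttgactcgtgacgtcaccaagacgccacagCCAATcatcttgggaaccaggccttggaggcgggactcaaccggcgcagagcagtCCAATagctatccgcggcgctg
Mcm6, chr1:128359706-128359955, minus strand: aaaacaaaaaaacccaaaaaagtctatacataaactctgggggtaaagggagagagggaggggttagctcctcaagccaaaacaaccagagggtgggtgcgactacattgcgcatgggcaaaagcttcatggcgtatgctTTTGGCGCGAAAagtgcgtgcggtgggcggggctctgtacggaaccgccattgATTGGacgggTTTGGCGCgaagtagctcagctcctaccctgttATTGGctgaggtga

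In Cdc20 the CHR begins 18 bases before the start and the CCAAT boxes 53 and 8 bases before it. Cdk1 has a CHR at 15 and another at 71 bases before the start, and its E2F match at 131. Top2a holds 4 CHR and 6 CCAAT matches in this stretch. The Mcm5 and Mcm6 stretches hold no CHR, and each has a pair of overlapping E2F matches, which begin 153 and 149 bases before the Mcm5 start and 110 and 106 bases before the Mcm6 start. Mcm6 has another E2F match at 47 bases.

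Chromatin data on the same starts were read from the authors' own peak lists. No start of the 33 genes lay within 1 kb of a merged wild-type H3K27me3 peak, against 24.9% of 11431 genes with a start, and none lay within 1 kb of a merged Suz12 or Ezh2 peak (2.02% and 1.32% of genes). A merged peak of Ring1B, a PRC1 subunit, lay within that distance of 1 of the 33, Ndc80 (3.03%), against 3.88% of genes. Suz12 peaks listed for single libraries lay near Birc5, Mad2l1 and Cdt1 in wild-type day 8 library 2 (9.09% of the 33, against 13.0% of genes). Those of mutant libraries lay near Kif11 at day 4 in library 1 (3.03% against 2.57%), Bub1 in ES cells in library 2 (3.03% against 0.744%) and Top2a at day 8 in library 2 (3.03% against 8.06%), and the other 5 single-library lists held none of the 33. The authors' deposited table calls 2 of the 38 genes PRC2 targets, Bub1 and Cenpe, against 32.2% of its 14833 genes, by a rule that the sources used here do not state.

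In replated cells the 38 genes split by the first treatment. For 36 of them, levels were high in all 5 libraries started in GSK343, low in 5 of the 6 started in DMSO, and high again in DMSO then DMSO library 1. The heat map of replated libraries shows this split in all rows but those of Pcna and Rrm2. Top2a, the topoisomerase that untangles chromosomes, was at 23.9 and 67.1 RPKM in GSK343 then GSK343, at 148, 95.4 and 44.3 RPKM in GSK343 then DMSO, at 2.53, 1.52 and 2.503 RPKM in DMSO then GSK343, and at 65.1, 3.70 and 2.47 RPKM in DMSO then DMSO. Its GSK343-started and DMSO-started libraries overlap only through DMSO then DMSO library 1.

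**Figure D1:**
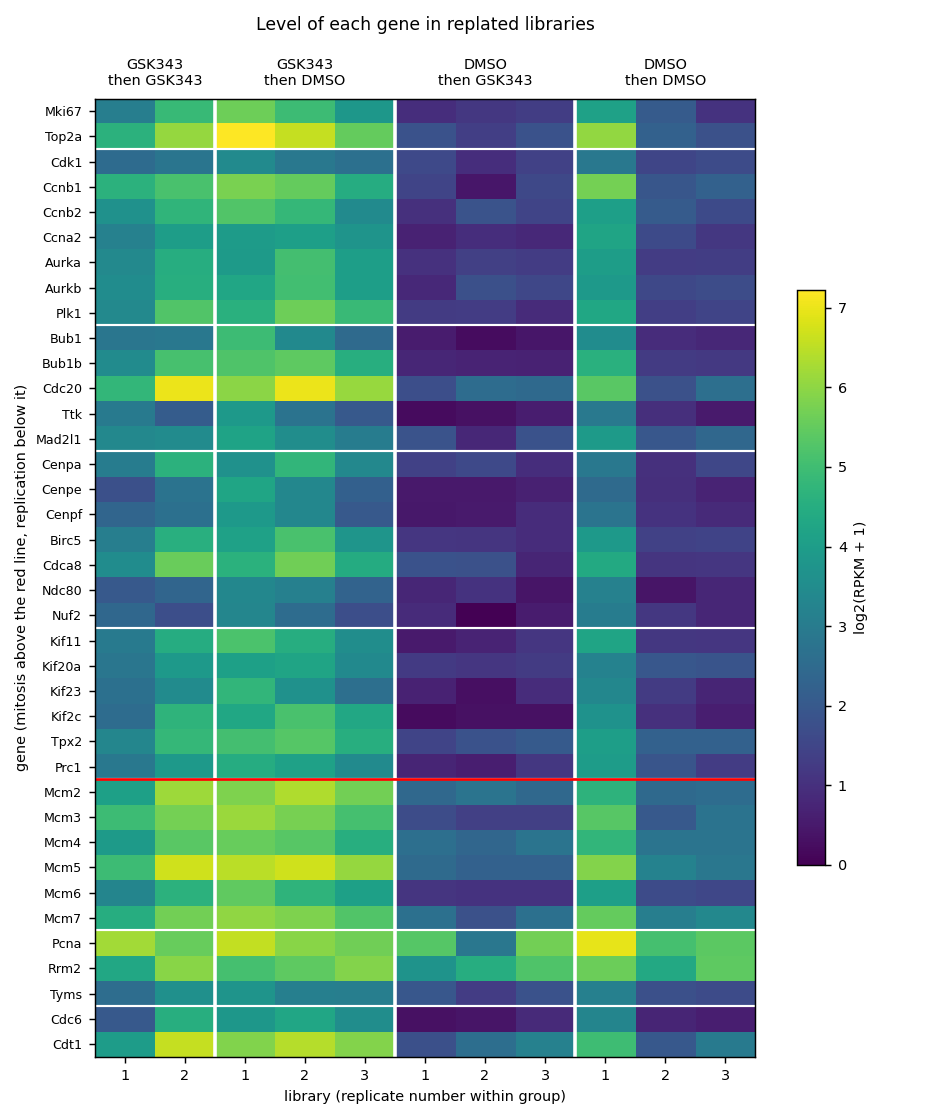
Level of the 38 genes in the 11 replated libraries, as log2(RPKM + 1) by colour, with genes in rows by role and libraries in columns by group. Within each row but those of Pcna and Rrm2, the 5 GSK343-started libraries and DMSO then DMSO library 1 are brighter than the other 5 DMSO-started libraries. All rows share a colour scale, so rows of low genes such as Nuf2 are darker than others.

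Mki67 is the marker of cycling cells that coats mitotic chromosomes. It was at 7.45 and 27.9 RPKM in GSK343 then GSK343, and at 48.2, 29.7 and 13.0 RPKM in GSK343 then DMSO. Its level was 0.926, 1.26 and 1.48 RPKM in DMSO then GSK343, and 16.5, 3.20 and 1.10 RPKM in DMSO then DMSO. Plk1, a kinase that drives spindle assembly, was at 9.57 and 37.5 RPKM in GSK343 then GSK343, at 22.8, 48.7 and 28.8 RPKM in GSK343 then DMSO, at 1.40, 1.43 and 0.843 RPKM in DMSO then GSK343, and at 18.6, 1.52 and 1.79 RPKM in DMSO then DMSO. The order of groups was the same for both genes, and DMSO then GSK343 was the lowest. Cdk1, the kinase that triggers mitosis, spanned less, with 4.77 and 5.94 RPKM in GSK343 then GSK343, 10.02, 6.42 and 5.38 RPKM in GSK343 then DMSO, 2.03, 0.912 and 1.63 RPKM in DMSO then GSK343, and 6.47, 1.82 and 2.14 RPKM in DMSO then DMSO. Its partner Ccnb1 (cyclin B1) was at 24.0 and 34.3 RPKM in GSK343 then GSK343, at 53.8, 45.1 and 21.4 RPKM in GSK343 then DMSO, at 1.79, 0.342 and 1.93 RPKM in DMSO then GSK343, and at 51.2, 2.80 and 3.77 RPKM in DMSO then DMSO. Here DMSO then DMSO library 1 reached the level of the highest GSK343-started libraries.

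Genes of the spindle and kinetochore had the same split. Cdc20, which activates the anaphase-promoting complex, was at 26.5 and 128 RPKM in GSK343 then GSK343, at 62.1, 128 and 68.5 RPKM in GSK343 then DMSO, at 2.32, 4.89 and 4.497 RPKM in DMSO then GSK343, and at 40.7, 2.49 and 5.22 RPKM in DMSO then DMSO. Bub1b, the checkpoint protein BUBR1, was at 10.1 and 33.7 RPKM in GSK343 then GSK343, at 36.9, 42.5 and 21.9 RPKM in GSK343 then DMSO, at 0.707, 0.648 and 0.610 RPKM in DMSO then GSK343, and at 23.0, 1.37 and 1.30 RPKM in DMSO then DMSO. In both genes each DMSO-started library other than DMSO then DMSO library 1 lay below every GSK343-started one. Kif2c was at 4.87 and 25.1 RPKM in GSK343 then GSK343, at 18.8, 34.8 and 19.2 RPKM in GSK343 then DMSO, at 0.168, 0.257 and 0.242 RPKM in DMSO then GSK343, and at 11.9, 1.01 and 0.515 RPKM in DMSO then DMSO. Cenpa was at 7.26 and 23.7 RPKM in GSK343 then GSK343, at 11.7, 26.1 and 9.30 RPKM in GSK343 then DMSO, at 1.64, 2.01 and 0.944 RPKM in DMSO then GSK343, and at 6.46, 0.986 and 1.88 RPKM in DMSO then DMSO. For Cenpa even DMSO then DMSO library 1 stayed below the lowest GSK343-started library.

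The replication genes followed the same split, except for 2. Mcm5, a subunit of the MCM helicase, was at 29.9 and 103 RPKM in GSK343 then GSK343, at 88.4, 102 and 66.2 RPKM in GSK343 then DMSO, at 4.67, 3.69 and 3.69 RPKM in DMSO then GSK343, and at 57.5, 8.19 and 6.28 RPKM in DMSO then DMSO. Mcm2, another subunit, was at 16.2 and 70.4 RPKM in GSK343 then GSK343, at 56.0, 81.3 and 50.2 RPKM in GSK343 then DMSO, at 4.46, 5.88 and 4.43 RPKM in DMSO then GSK343, and at 24.4, 4.48 and 4.82 RPKM in DMSO then DMSO. Pcna, the sliding clamp that holds polymerases on DNA and also serves in repair, was the exception together with Rrm2, the small subunit of ribonucleotide reductase. Pcna was at 73.6 and 45.9 RPKM in GSK343 then GSK343, at 93.4, 60.2 and 49.6 RPKM in GSK343 then DMSO, at 38.9, 6.29 and 50.0 RPKM in DMSO then GSK343, and at 122, 33.0 and 41.5 RPKM in DMSO then DMSO. Rrm2 was at 19.0 and 60.6 RPKM in GSK343 then GSK343, at 33.2, 42.2 and 58.0 RPKM in GSK343 then DMSO, at 12.01, 21.5 and 36.9 RPKM in DMSO then GSK343, and at 47.8, 19.6 and 41.8 RPKM in DMSO then DMSO. For both of these genes the groups overlapped widely.

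Origin licensing, the loading of the helicase before S phase, was read from Cdc6 and Cdt1. Cdc6 was at 3.08 and 22.0 RPKM in GSK343 then GSK343, at 13.2, 18.2 and 10.6 RPKM in GSK343 then DMSO, at 0.258, 0.316 and 0.817 RPKM in DMSO then GSK343, and at 8.73, 0.692 and 0.513 RPKM in DMSO then DMSO. Cdt1 was at 14.9 and 96.1 RPKM in GSK343 then GSK343, at 56.6, 85.0 and 57.5 RPKM in GSK343 then DMSO, at 2.37, 5.07 and 8.00 RPKM in DMSO then GSK343, and at 30.5, 2.95 and 6.88 RPKM in DMSO then DMSO. In both, GSK343 then GSK343 library 1 was the lowest of the GSK343-started libraries and DMSO then DMSO library 1 lay above it.

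The first treatment was tested with all 11 replated libraries, as the mean of the GSK343 then DMSO against DMSO then DMSO and the GSK343 then GSK343 against DMSO then GSK343 differences, a comparison chosen after the spread within groups had been seen. Under limma with Benjamini-Hochberg adjustment over 14367 genes at 0.05, 35 of the 38 genes were higher in GSK343-started cells, 26 of 27 mitosis and 9 of 11 replication genes, and 0 were lower. Over all genes tested, 9.58% were called higher and 5.58% lower. The median difference in log2(RPKM + 1) was 2.33 over the 38 genes and -0.05 over all genes tested. Not called were Pcna (0.75 ± 0.51 SE, adjusted p = 0.294), Rrm2 (0.50 ± 0.39 SE, adjusted p = 0.367) and Nuf2, a kinetochore subunit (1.23 ± 0.43 SE, adjusted p = 0.0634). Nuf2 had 0 reads in DMSO then GSK343 library 2, and a count of 0 (up to 3 reads, counting error only) allows up to 0.479 RPKM there.

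The largest differences among mitosis genes were those of Top2a (3.40 ± 0.66 SE in log2, adjusted p = 0.0171 by limma), of the anaphase activator Cdc20 (3.37 ± 0.59 SE, adjusted p = 0.0153) and of the spindle checkpoint gene Bub1b (3.15 ± 0.57 SE, adjusted p = 0.0155). Kif2c, a kinesin that depolymerises microtubules, differed by 3.09 ± 0.55 SE, Plk1 by 2.93 ± 0.53 SE and Cdca8, a subunit of the chromosomal passenger complex, by 2.88 ± 0.60 SE. Among replication genes Mcm3 (3.07 ± 0.50 SE, adjusted p = 0.0152) and Mcm5 (2.97 ± 0.51 SE, adjusted p = 0.0152) led, followed by the origin licensing factor Cdt1 (2.76 ± 0.56 SE) and by Mcm2 (2.66 ± 0.46 SE). All 6 MCM subunits were called, with differences of 1.88 to 3.07. Mki67 (2.60 ± 0.54 SE), Ccnb1 (2.85 ± 0.60 SE) and Cdk1 (1.17 ± 0.33 SE, adjusted p = 0.0356) were called too. By role, the median was 2.36 over 7 mitotic kinases and cyclins, 2.16 over 5 genes of the spindle checkpoint and its anaphase target, 1.79 over 7 kinetochore and passenger genes, 2.18 over 6 spindle motors and microtubule factors, and 0.75 over the clamp and the nucleotide supply genes Pcna, Rrm2 and Tyms.

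**Figure D2:**
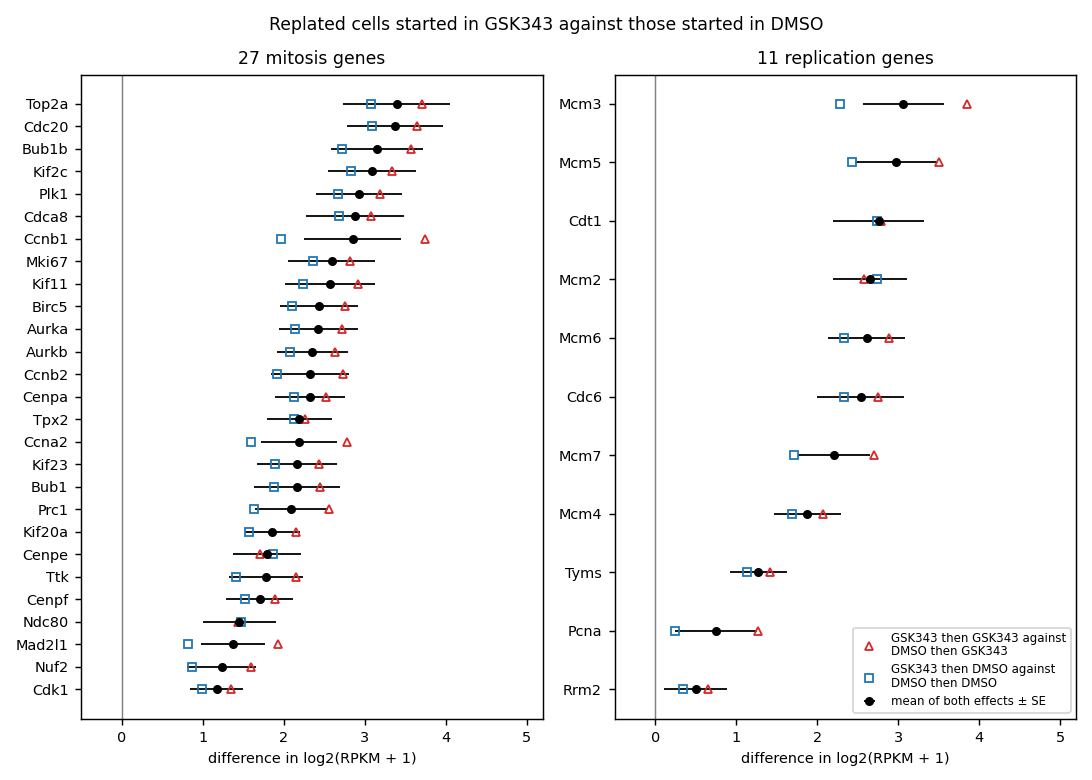
Difference in log2(RPKM + 1) between GSK343-started and DMSO-started replated cells for each gene (black, mean of both differences ± SE), with the difference among cells given GSK343 after replating (red) and among cells given DMSO after replating (blue). The black points lie right of 0 for all 38 genes, from 0.50 at Rrm2 to 3.40 at Top2a.

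The call of the averaged comparison depends on single libraries. The counts that follow are of the 38 genes alone, and the share of all genes called in each of these fits is not given here. The count was 0 of 38 without GSK343 then DMSO library 2 or without GSK343 then GSK343 library 2, 1 without DMSO then DMSO library 2, 6 without DMSO then DMSO library 3 and 23 without GSK343 then DMSO library 1, and was 35 to 36 without GSK343 then GSK343 library 1, DMSO then GSK343 library 2 or DMSO then DMSO library 1, while the median difference of the 38 genes stayed between 2.03 and 2.68 with any single library left out. Cenpa, the centromeric histone H3, was alone in having every GSK343-started library (7.26 to 26.1 RPKM) above every DMSO-started one (up to 6.46 RPKM), against 1.31% of all genes tested. Without DMSO then DMSO library 1, the groups did not overlap for 36 of 38 genes, against 11.0% of all genes. Kif2c then had 4.87 to 34.8 RPKM in GSK343-started libraries and 0.168 to 1.01 RPKM in the other 5 DMSO-started ones, and Cdc6, which loads the MCM helicase, 3.08 to 22.0 RPKM and 0.258 to 0.817 RPKM.

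Each planned comparison of 2 replated groups gave no call at an adjusted p of 0.05 under limma in the fit of all 4 groups, for the 38 genes or for any other gene. In GSK343 then GSK343 against DMSO then GSK343, all 38 differences were positive (median 2.67, all genes 0.01), 35 had an unadjusted p under 0.05 (11.9% of all genes were higher at that p), and the groups did not overlap for 36 (17.9% of all genes). Mcm3 (3.85 ± 0.75 SE, adjusted p = 0.115 by limma) and Mcm5 (3.51 ± 0.75 SE, adjusted p = 0.115) had the smallest p. A fit of only these 2 groups called 6 of the 38, and 105 genes in all. In the fit of all groups, 26 were called without GSK343 then GSK343 library 1, which was below library 2 for 35 of the 38 genes, and 0 with any other library left out. That fit leaves GSK343 then GSK343 with 1 library, assumed to vary like the other groups. The share of all genes called in it is not given here, so its count is not set against a background. The authors' deposited table, whose test differs, calls 34 of the 38 higher at an adjusted p of 0.05, against 8.48% of its genes.

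In GSK343 then DMSO against DMSO then DMSO, all 38 differences were again positive (median 2.02, all genes -0.09), and 34 had an unadjusted p under 0.05 (11.4% of all genes were higher at that p). The groups did not overlap for 13 of the 38, where 13.6% of all genes were higher without overlap. In the fit of all groups, 32 of the 38 were called without DMSO then DMSO library 1 and 0 with any other library left out. The share of all genes called in these fits is not given here, so the counts are not set against a background. A fit of only these 2 groups called 7 of the 38, and 996 genes in all. Mcm2 (2.74 ± 0.61 SE, adjusted p = 0.169 by limma) and the spindle assembly factor Tpx2 (2.12 ± 0.54 SE, adjusted p = 0.169) had the smallest p. The authors' deposited table calls 23 of the 38 higher, 18 mitosis and 5 replication genes, against 4.6% of its genes. A count model on the recovered reads (voom) called 0 of the 38 in either comparison.

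The second treatment gave smaller differences. In DMSO then GSK343 against DMSO then DMSO, all 38 differences were negative (median -1.15, all genes -0.23), 8 had an unadjusted p under 0.05 (1.97% of all genes were lower at that p) and the groups did not overlap for 18 (6.37% of all genes were lower without overlap). Mcm3 (-1.90 ± 0.67 SE, adjusted p = 0.885 by limma) and Mcm7 (-1.61 ± 0.59 SE, adjusted p = 0.885) had the smallest p, and the median was -0.38 without DMSO then DMSO library 1. In GSK343 then GSK343 against GSK343 then DMSO, all 38 genes overlapped between groups (3.28% of all genes were higher and 6.42% lower without overlap), and 0 had an unadjusted p under 0.05 (0.578% of all genes were higher and 0.787% lower at that p). All 38 differences were negative here too (median -0.56, all genes -0.11), and the median was 0.05 without GSK343 then GSK343 library 1. The smallest p belonged to Cenpe, a kinetochore motor (-1.02 ± 0.63 SE, adjusted p = 1 by limma), and Tpx2 (-0.91 ± 0.60 SE, adjusted p = 1). The interaction, the effect of GSK343 after replating in GSK343-started minus DMSO-started cells, called 0 of the 38 by limma, 0 with voom, and 0 at an unadjusted p under 0.05 (0.919% of all genes were higher and 0.383% lower at that p). Its value was positive for 35 of the 38 (median 0.55, all genes 0.13). Mcm3 (1.57 ± 1.0 SE) and Ccnb1 (1.77 ± 1.2 SE) had the smallest p.

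The mitosis and replication classes were also set against each other in replated cells. The mean log2(RPKM + 1) of the 27 mitosis genes minus that of the 11 replication genes, a description with no test, was -1.15 ± 0.29 in GSK343 then GSK343 (SD, n = 2), -1.09 ± 0.27 in GSK343 then DMSO (n = 3), -1.34 ± 0.23 in DMSO then GSK343 (n = 3) and -1.26 ± 0.25 in DMSO then DMSO (n = 3). The group means differed by 0.19 between GSK343 then GSK343 and DMSO then GSK343, and by 0.17 between GSK343 then DMSO and DMSO then DMSO, both within 1 SD of a group. The difference between DMSO then GSK343 and DMSO then DMSO was -0.08. With a pseudocount of 0.1 in place of 1, the first of these was 0.67, the second 0.37 and the third -0.37. The median ratio of mean RPKM in GSK343 then GSK343 to that in DMSO then GSK343 was 13.6 over mitosis genes and 8.80 over replication genes, and that in DMSO then GSK343 to DMSO then DMSO was 0.188 over mitosis genes and 0.383 over replication genes. The last ratios divide by a mean that rests largely on DMSO then DMSO library 1. A gene of the set had a median of 15.8 RPKM there, against 2.12 and 1.88 RPKM in libraries 2 and 3. In DMSO then GSK343 libraries 1, 2 and 3 that median was 1.27, 1.24 and 1.40 RPKM. In DMSO then GSK343 library 2 a gene of the set had a median of 10 reads, so ratios between low genes there carry wide counting error.

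**Figure D3:**
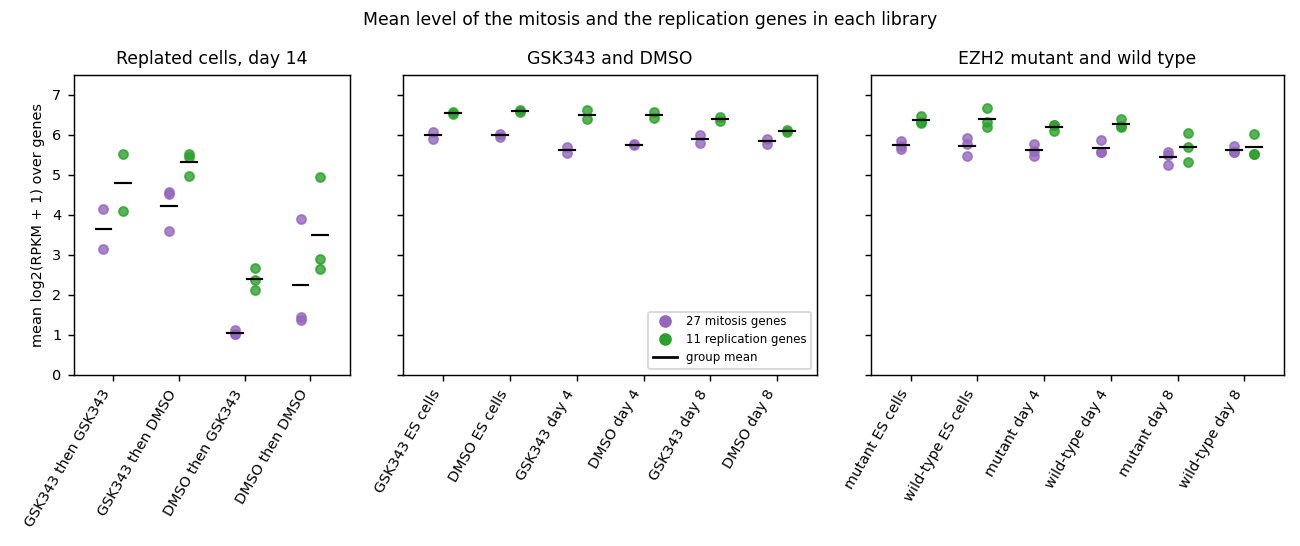
Mean log2(RPKM + 1) of the 27 mitosis genes (purple) and the 11 replication genes (green) in each of the 41 libraries, with bars at group means. Replated groups run from 1.05 to 4.22 for mitosis genes, while groups of ES cells and embryoid bodies lie between 5.43 and 5.98, in tables that were normalized separately.

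Other genes of the cycle, from lists chosen with earlier results known, were read in the averaged comparison. Of 43 further mitosis genes tested, 32 were higher and 0 lower in GSK343-started cells, among them Cdca2 (2.56 ± 0.41 SE, adjusted p = 0.0152 by limma) and Dlgap5 (2.93 ± 0.48 SE). Of 42 further replication genes, 33 were higher and 0 lower, led by Pold1, the catalytic subunit of DNA polymerase delta (2.47 ± 0.43 SE), and the DNA ligase Lig1 (3.0 ± 0.52 SE). Of 7 MuvB, B-Myb and FoxM1 genes only Mybl2, which encodes B-Myb, and Foxm1 passed the test, and the other 5 did not. Mybl2 was at 29.7 and 162 RPKM in GSK343 then GSK343, at 108, 117 and 78.6 RPKM in GSK343 then DMSO, at 0.980, 1.29 and 1.71 RPKM in DMSO then GSK343, and at 48.4, 1.30 and 2.89 RPKM in DMSO then DMSO. Its difference (4.33 ± 0.68 SE, adjusted p = 0.0152) was larger than that of any of the 38 genes, and that of Foxm1 was 1.84 ± 0.43 SE (adjusted p = 0.0225).

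Of 20 G1 genes (D and E cyclins, their kinases, E2F and pocket proteins), 6 were higher and 3 lower. Ccne1, cyclin E1, was higher (1.89 ± 0.34 SE, adjusted p = 0.0155 by limma) and so was E2f7 (1.41 ± 0.29 SE), whereas E2f1 lay between 7.93 and 11.7 RPKM in all 11 libraries. Of 7 inhibitors of cyclin-dependent kinases, 1 passed the test: Cdkn1a, which encodes p21, was lower (-1.81 ± 0.47 SE, adjusted p = 0.0314). Cdkn1a was at 294 and 52.0 RPKM in GSK343 then GSK343, at 53.6, 61.1 and 158 RPKM in GSK343 then DMSO, at 512, 293 and 355 RPKM in DMSO then GSK343, and at 192, 400 and 464 RPKM in DMSO then DMSO. The 4 lowest values were in GSK343-started libraries, and GSK343 then GSK343 library 1, at 294 RPKM, lay within the range of the DMSO-started libraries, 192 to 512 RPKM. Cdkn2a, a Polycomb target that encodes p16 and p19Arf, differed by -0.90 ± 0.39 SE (adjusted p = 0.112). Ezh2 was higher in GSK343-started cells (1.91 ± 0.46 SE, adjusted p = 0.0253), with 11.9 and 21.6 RPKM in GSK343 then GSK343, 41.2, 22.6 and 11.8 RPKM in GSK343 then DMSO, 2.24, 1.49 and 4.13 RPKM in DMSO then GSK343, and 21.1, 4.23 and 3.72 RPKM in DMSO then DMSO.

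Among markers of other cell states, most of those of pluripotency moved with these genes. In this comparison 9.58% of all genes were called higher and 5.58% lower. Of 14 pluripotency markers, 13 were higher in GSK343-started cells, among them Dppa5a (5.07 ± 0.76 SE, adjusted p = 0.0152 by limma) and Pou5f1 (4.94 ± 0.77 SE). In DMSO then GSK343 libraries 1, 2 and 3, 2, 5 and 2 of the 14 were at 0. Their summed level was 691 to 1423 RPKM in GSK343 then GSK343, 808 to 1415 RPKM in GSK343 then DMSO, 81.7 to 137 RPKM in DMSO then GSK343, and 833 RPKM in library 1 but 96.2 and 151 RPKM in libraries 2 and 3 of DMSO then DMSO. All 18 fibroblast and mesenchyme markers were at 0.5 RPKM or more in every replated library, 4 of them were lower in GSK343-started cells, with Lox (-2.19 ± 0.50 SE) and Acta2 (-2.44 ± 0.62 SE) leading, and 0 were higher. They summed to 1980 to 4650 RPKM in GSK343 then GSK343, 2545 to 7049 RPKM in GSK343 then DMSO, 6586 to 12244 RPKM in DMSO then GSK343 and 4332 to 9530 RPKM in DMSO then DMSO. Values in replated cells existed for only 4 of 11 blood and endothelium, 8 of 12 cardiac, 10 of 11 endoderm and 5 of 9 neural markers. Among these, blood, cardiac, endoderm and neural markers gave 1, 1, 0 and 0 genes higher (Pecam1 and Actn2) and 0, 0, 1 and 0 lower (Dab2). The blood and endothelium markers summed to no more than 0.771 to 13.5 RPKM in a library. The part of these cell states in the levels of the 38 genes was not tested.

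**Figure D4:**
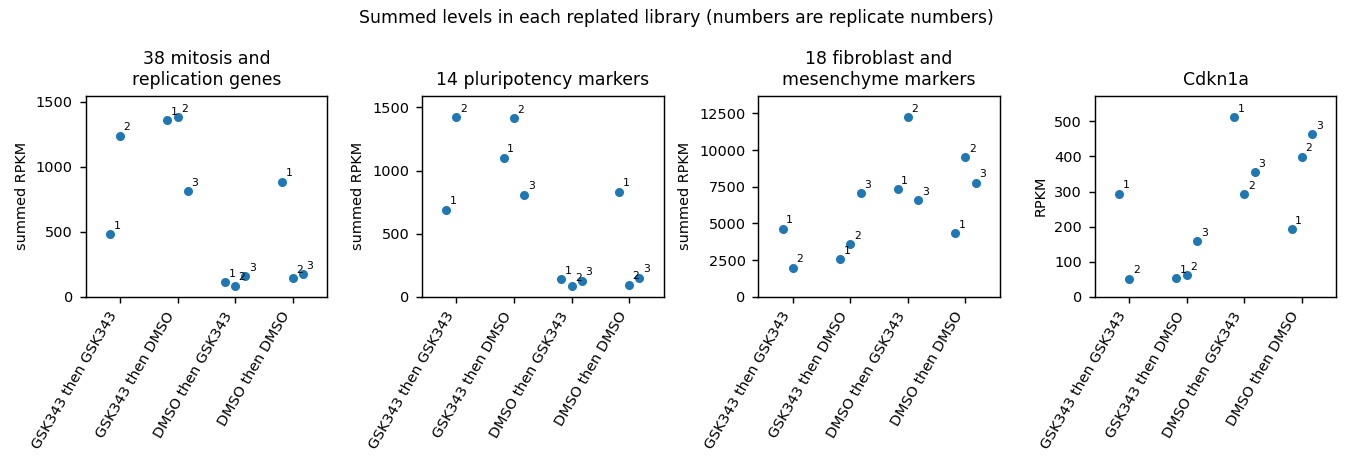
Summed RPKM of the 38 genes, of 14 pluripotency markers and of 18 fibroblast and mesenchyme markers, and RPKM of Cdkn1a, in each replated library, numbered by replicate. DMSO then DMSO library 1 stands with the GSK343-started libraries in the first pair of panels, and its mesenchyme sum of 4332 RPKM is the lowest of the DMSO-started libraries.

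Before replating, GSK343 and DMSO cells were compared in ES cells and at days 4 and 8. In GSK343-treated against DMSO-treated day 8 embryoid bodies, limma called 3 of the 38 higher and 0 lower, a smaller share than the 15.6% higher and 16.0% lower among all 14016 genes tested. More of the 38 were called with replicate number as a block in the fit, but the share of all genes called in that fit is not given here. Mcm2 was at 133 and 142 RPKM in GSK343 day 8 libraries and 94.5 and 105 RPKM in DMSO day 8 libraries (0.46 ± 0.13 SE in log2, adjusted p = 0.0218). Mcm7, also of the helicase, was at 113 and 135 RPKM in GSK343 day 8 libraries and 81.6 and 85.5 RPKM in DMSO day 8 libraries (0.56 ± 0.18 SE, adjusted p = 0.0359). Cdt1 was at 81.6 and 97.4 RPKM in GSK343 day 8 libraries and 69.0 and 64.8 RPKM in DMSO day 8 libraries (0.41 ± 0.12 SE, adjusted p = 0.0287). In these 3 genes both GSK343 libraries lay above both DMSO libraries. Without overlap, 9 of 11 replication genes were higher and 0 lower, where 32.7% of all genes were higher. Of 27 mitosis genes 6 were higher and 2 lower in the same way.

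All 11 replication differences at day 8 were positive (median 0.30), against 17 of 27 mitosis genes (median 0.11) and a median of 0.00 over all genes. Mki67 (-0.24 ± 0.15 SE, adjusted p = 0.254 by limma), Cdk1 (-0.13 ± 0.19 SE), Ccnb1 (0.21 ± 0.15 SE) and Plk1 (0.10 ± 0.16 SE) did not pass the test, and neither did Mcm5 (0.33 ± 0.15 SE, adjusted p = 0.135) or Pcna (0.28 ± 0.18 SE). Of 42 further replication genes, 14 were higher and 0 lower, with Rfc5, a clamp loader subunit, at 1.09 ± 0.17 SE and Pole, of DNA polymerase epsilon, at 0.66 ± 0.11 SE. Of 44 further mitosis genes 3 were higher and 0 lower, among them Cenpm and Espl1. Mybl2 was also higher (2.3 ± 0.20 SE), as was Ccne1 (2.02 ± 0.24 SE). The 3 calls fell to 0 without DMSO day 8 library 1, without DMSO day 8 library 2, without GSK343 day 8 library 2, or when only the 2 groups were fitted. Pluripotency markers summed to 1542 to 2186 RPKM in GSK343 day 8 and 152 to 195 RPKM in DMSO day 8 libraries, and their part in these differences was not tested.

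At day 4 and in ES cells GSK343 gave no call among the 38 genes. At day 4 limma called 0.499% of all genes higher and 0.128% lower. Cdt1 (0.31 ± 0.12 SE, adjusted p = 0.382) and Plk1 (-0.37 ± 0.16 SE, adjusted p = 0.460) had the smallest p, the only 2 with an unadjusted p under 0.05 (5.32% of all genes were higher and 5.02% lower at that p), and voom called 0. In ES cells limma called 0 of all genes, voom called 0 of the 38, 0 of the 38 had an unadjusted p under 0.05 (2.85% of all genes were higher and 1.92% lower at that p), and Mcm2 (-0.28 ± 0.13 SE, adjusted p = 1) and Cdt1 (-0.26 ± 0.12 SE, adjusted p = 1) had the smallest p. The change in the GSK343 effect between day 4 and day 8 was called for 0 of the 38 genes, where 5.68% of all genes were higher and 6.51% lower. With replicate number as a block in the fit, some of the 38 were called. The share of all genes called in that fit, or with a library left out, is not given here. Mcm2 (0.56 ± 0.18 SE, adjusted p = 0.0801 by limma) and Mcm7 (0.63 ± 0.25 SE, adjusted p = 0.136) were the 2 of the 38 with an unadjusted p under 0.05 (13.8% of all genes were higher and 12.8% lower at that p), voom called 0, and the count was 1 without GSK343 day 4 library 2.

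During embryoid body differentiation without inhibitor, replication genes were lower at day 8 than at day 4. In DMSO day 8 against DMSO day 4, limma called 7 of 11 replication genes lower and 0 higher, where 18.1% of all genes were lower and 23.3% higher. Of 27 mitosis genes 4 were called higher and 0 lower, a smaller share than the 23.3% of all genes. Prc1, which bundles microtubules at the spindle midzone, was at 63.4 and 72.9 RPKM at day 8 and 45.4 and 46.6 RPKM at day 4 (0.55 ± 0.19 SE in log2, adjusted p = 0.0402). Mki67 was at 51.4 and 53.0 RPKM at day 8 and 37.6 and 35.9 RPKM at day 4 (0.49 ± 0.15 SE, adjusted p = 0.0221). The other 2 that rose were Ndc80, of the outer kinetochore (0.40 ± 0.14 SE), and Kif23, a midzone kinesin (0.36 ± 0.12 SE). Each of these 4 lost its call in all 4 fits that leave out 1 library.

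Among replication genes Mcm2 fell to 94.5 and 105 RPKM at day 8, against 165 and 171 RPKM at day 4 (-0.75 ± 0.13 SE, adjusted p = 0.00129 by limma). Mcm5 fell to 153 and 158 RPKM, against 224 and 256 RPKM at day 4 (-0.62 ± 0.15 SE, adjusted p = 0.00892). Pcna was at 82.6 and 100.2 RPKM at day 8 and 122 and 157 RPKM at day 4 (-0.60 ± 0.18 SE, adjusted p = 0.0237). Mcm7 (-0.59 ± 0.18 SE), the thymidylate synthase gene Tyms (-0.54 ± 0.14 SE), Cdc6 (-0.50 ± 0.18 SE) and Mcm3 (-0.37 ± 0.13 SE) fell as well. In all 7 both day 8 libraries lay below both day 4 libraries. Mcm7 lost its call in all 4 fits that leave out 1 library, and Mcm5 and Pcna each lost theirs in 2. The share of all genes called in these fits is not given here. Without overlap, 10 of 11 replication genes were lower at day 8 and 1 higher, where 36.2% of all genes were lower. The DMSO day 8 libraries are also the ones against which the GSK343 day 8 libraries were set, so the fall with time and the higher level under GSK343 share them and are not independent. The count was 4 without DMSO day 4 library 1, 1 without DMSO day 8 library 1, 1 without DMSO day 4 library 2 and 3 without DMSO day 8 library 2, and Mcm2 was called in each of these fits.

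Wild-type embryoid bodies, a separate set of libraries, gave 5 replication genes lower and 0 of the 38 higher at day 8 than at day 4, where limma called 10.6% of all genes higher and 10.2% lower. All 11 replication differences were negative (median -0.65), and the 27 mitosis genes had a median of -0.01. Tyms was at 12.2, 11.2 and 16.8 RPKM at day 8 and 20.2, 23.0 and 28.6 RPKM at day 4 (-0.80 ± 0.23 SE, adjusted p = 0.0251). Mcm2 was at 61.8, 67.1 and 97.9 RPKM at day 8 and 133, 133 and 119 RPKM at day 4 (-0.78 ± 0.22 SE, adjusted p = 0.0223). Pcna was at 58.9, 54.4 and 79.7 RPKM at day 8 and 98.5, 109.9 and 116 RPKM at day 4 (-0.76 ± 0.22 SE, adjusted p = 0.0236). In each of these the day 8 libraries lay below all day 4 libraries, and library 3 was the highest at day 8. Without overlap, 10 of 11 replication genes and 2 of 27 mitosis genes were lower at day 8 and 0 higher, where 17.3% of all genes were lower. Mcm7 (-0.73 ± 0.24 SE) and Cdc6 (-0.69 ± 0.22 SE) were the other 2 called, while Mcm5 (-0.65 ± 0.23 SE, adjusted p = 0.0576) and Mki67 (0.32 ± 0.31 SE, adjusted p = 0.505) were not.

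The wild-type count was 7 without day 8 library 3, 0 without day 8 library 1 or 2, 2 without day 4 library 1, 1 without day 4 library 2 or 3, and 0 when only these groups were fitted. It was higher with replicate number as a block in the fit. The share of all genes called in these fits is not given here, so the counts are not set against a background. Of 42 further replication genes, 20 were lower and 0 higher in DMSO day 8 embryoid bodies, led by Dut (-0.96 ± 0.14 SE) and Dbf4 (-0.77 ± 0.12 SE), and 11 were lower and 0 higher in the wild type, led by Tk1 (-0.95 ± 0.17 SE) and Pole (-0.89 ± 0.19 SE). Of 44 further mitosis genes 5 were higher and 1 lower in DMSO and 1 higher and 0 lower in the wild type. Over all genes tested, 23.3% were called higher and 18.1% lower at day 8 in DMSO. In the wild type these shares were 10.6% and 10.2%. Ccne1 fell in both sets, by 2.5 in DMSO and by 2.28 in the wild type on the log2 scale. Of 7 kinase inhibitors 4 were higher at day 8 in each set, with Cdkn2c (p18) at 1.25 ± 0.24 SE in DMSO and 1.15 ± 0.23 SE in the wild type. The mean of the mitosis genes minus that of the replication genes was -0.25 ± 0.06 at DMSO day 8 and -0.75 ± 0.07 at DMSO day 4 (SD, n = 2 each), and -0.07 ± 0.20 at wild-type day 8 and -0.60 ± 0.06 at wild-type day 4 (SD, n = 3 each). In GSK343-treated embryoid bodies it was -0.50 ± 0.08 at day 8 and -0.89 ± 0.04 at day 4 (SD, n = 2 each). Of 14 pluripotency markers, 10 were lower and 2 higher at day 8 in DMSO, and 4 lower and 1 higher in the wild type. Of 18 fibroblast and mesenchyme markers, 14 were higher and 1 lower in DMSO, and 7 higher and 0 lower in the wild type. The part of these cell types in the differences was not tested.

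**Figure D5:**
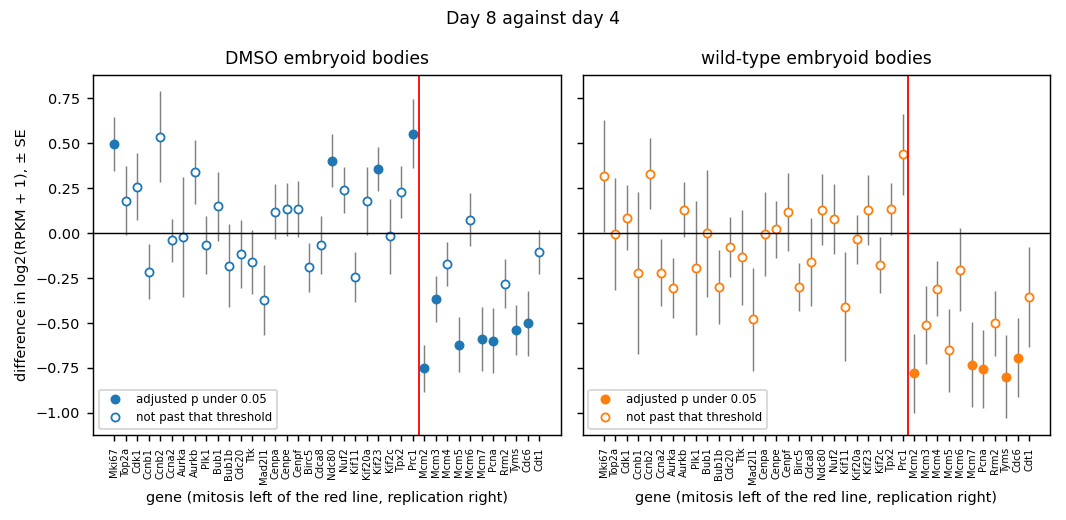
Difference in log2(RPKM + 1) between day 8 and day 4 for each of the 38 genes (points, ± SE), in DMSO embryoid bodies and in wild-type embryoid bodies, with filled points past an adjusted p of 0.05. Replication genes, right of the red line, reach -0.75 (Mcm2) in DMSO and -0.80 (Tyms) in the wild type, and mitosis genes scatter around 0.

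From ES cells to day 4, limma called 1 of the 38 genes higher and 7 lower in DMSO cells, where 17.1% of all genes were higher and 15.7% lower. With replicate number as a block in the fit, more of the 38 were called. The share of all genes called in that fit, or with a library left out, is not given here. Cdt1 fell to 70.0 and 74.0 RPKM at day 4, against 141 and 146 RPKM in ES cells (-0.99 ± 0.12 SE, adjusted p = 0.000393). Prc1 fell to 45.4 and 46.6 RPKM, against 89.3 and 87.2 RPKM in ES cells (-0.92 ± 0.19 SE, adjusted p = 0.00534), and Kif23 (-0.88 ± 0.12 SE), Ccnb2 (-0.80 ± 0.25 SE), Top2a (-0.59 ± 0.19 SE), Aurkb (-0.52 ± 0.18 SE) and Mcm6 (-0.45 ± 0.15 SE) fell too, while Tyms rose (0.40 ± 0.14 SE). Cdt1, Kif23 and Prc1 were called with any 1 library left out. The count was 4 without DMSO ES cell library 1 and 3 without either day 4 library. In wild-type cells limma called 0 of the 38 between these stages, where 4.29% of all genes were higher and 4.39% lower, and 3 of the 38 had an unadjusted p under 0.05 (11.5% of all genes were higher and 11.7% lower at that p). Rrm2 (-0.46 ± 0.18 SE, adjusted p = 0.136) and Kif23 (-0.45 ± 0.19 SE, adjusted p = 0.175) had the smallest p, voom called 0, and the count was 3 without wild-type ES cell library 3.

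Between EZH2-mutant and wild-type cells no gene of the set passed the test. Limma called 0 of the 38 in ES cells, at day 4 or at day 8, where 0.0635%, 0.0282% and 1.3% of all genes were higher and 0.0282%, 0.0212% and 0.212% lower, and voom called 0 at each stage. The count at day 8 was also 0 without wild-type day 8 library 3, and at day 4 it was 0 without wild-type day 4 library 2. An unadjusted p under 0.05 was reached by 0 of the 38 in ES cells (3.73% of all genes higher and 2.31% lower at that p), by 0 at day 4 (2.75% and 1.91%) and by 4 at day 8 (9.06% and 5.29%), and those 4 are mitosis genes. At day 8 Nuf2 (-0.54 ± 0.19 SE, adjusted p = 0.192) and Cenpe (-0.40 ± 0.16 SE, adjusted p = 0.252) had the smallest p. Mki67 was at 48.7, 29.2 and 40.9 RPKM in mutant and 84.3, 70.2 and 47.0 RPKM in wild-type day 8 embryoid bodies (-0.74 ± 0.31 SE, adjusted p = 0.288), with 1 mutant library above the lowest wild-type one. Mcm2 was at 58.4, 105 and 71.7 RPKM in mutant and 61.8, 67.1 and 97.9 RPKM in wild-type day 8 embryoid bodies, which overlapped. In ES cells Cdc6 (0.30 ± 0.22 SE) and Tpx2 (0.20 ± 0.15 SE) and at day 4 Aurkb (-0.20 ± 0.15 SE) and Rrm2 (0.19 ± 0.18 SE) had the smallest p. The change of the mutant effect between day 4 and day 8 was called for 0 of the 38 genes and had an unadjusted p under 0.05 for 0 (1.97% of all genes were higher and 0.635% lower at that p), and voom called 0, with Cenpe (-0.33 ± 0.23 SE) and Nuf2 (-0.40 ± 0.27 SE) nearest.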

How the data were processed

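RNA-seq values were read from 3 deposited tables of RPKM per library, as the authors normalized them, per the file headers. STAR 2.5.3, featureCounts 1.6.1, edgeR, HOMER 4.10.3 and the build mm10 are named per the submitters' processing notes, without roles. Nothing read here states the gene models, filters or strand setting of the counts. The 38 genes and the gene lists were chosen with earlier results of these data known. GSK343 then GSK343 library 3 was not analysed here.

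Values were tested with limma 3.58.1 in R 4.3.3 on log2(RPKM + 1), for genes at 0.5 RPKM or more in 2 libraries (3 in the mutant and wild-type table), all groups of a table in 1 fit (eBayes with trend), and Benjamini-Hochberg adjustment at 0.05 over all genes kept: 14367 replated, 14016 GSK343 and DMSO, 14180 mutant and wild type. RPKM times gene length goes up in equal steps within a library, from which reads were recovered (100% within 0.02 of a whole read) and used for depth and for voom. Fold differences on the log2 scale understate the change of low genes. Groups were compared within a table, and the authors' deposited log2 fold changes and adjusted p-values were only counted. In the mutant and wild-type table the deposited values carry a further scaling per library.

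Full statistics were given for up to 6 mitosis and 4 replication genes with the largest called differences, or the 2 smallest p where none was called, and for Mki67, Cdk1, Ccnb1, Plk1, Mcm2, Mcm5 and Pcna. Genes of other lists are the 2 called with the smallest p, and Ezh2, Cdkn1a, Cdkn2a, Foxm1, Mybl2, E2f1, Ccne1 and Pou5f1. Any other gene was named after its values were seen. The authors' deposited peak positions (4 merged sets and 9 Suz12 lists of single libraries; the submitters' processing notes name Bowtie2 2.3.4.3) were set against RefSeq starts of GRCm38.p6, the assembly that mm10 is built on. Alternatives were a pseudocount of 0.1, no filter, rescaling without the ribosomal RNA gene Rn45s, median-of-ratios scaling, voom, a fit of only the groups compared, a replicate block and leaving out each library. Comparisons of 2 groups were also run on simulated counts with a fixed spread between libraries, and the averaged comparison was not simulated. In replated comparisons, 25% to 39% of genes changed by 1 on the log2 scale were recovered, and 96% to 98% of those changed by 2. The simulated spread was smaller than that of genes of the set in DMSO then DMSO, such as Ccnb1 (19.3 ± 27.7 RPKM, SD, n = 3). Those shares therefore do not carry over to the replated groups.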

Additional observations from a re-analysis of the deposited data

How the results depend on the processing

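No value of the 38 genes changed sign among those called. Counts below are genes of the 38 called by limma, mostly without the share of all genes called in the same fit. Fitting only the groups compared gave 7 in GSK343 then DMSO against DMSO then DMSO and 6 in GSK343 then GSK343 against DMSO then GSK343 (0 in the shared fit), and 0 in GSK343 against DMSO at day 8 (3) and in wild-type day 8 against day 4 (5). Rescaling without Rn45s gave 5 and 3 in those last comparisons. With 1 library left out the count ran from 0 to 32 in GSK343 then DMSO against DMSO then DMSO, from 0 to 26 in GSK343 then GSK343 against DMSO then GSK343, from 0 to 36 in GSK343-started against DMSO-started cells, from 0 to 3 in GSK343 against DMSO at day 8, from 3 to 6 in DMSO day 4 against ES cells, from 1 to 4 in DMSO day 8 against day 4, from 0 to 3 in wild-type day 4 against ES cells, from 0 to 7 in wild-type day 8 against day 4, and from 0 to 1 in the change of the GSK343 effect between day 4 and day 8. Where a group was left with 1 library, it was assumed to vary like the others. The averaged comparison gave 33 to 36 under the alternatives that keep all libraries. Fewer libraries are part of the leave-one-out fits' construction, and otherwise the cause was not tested.

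Replicate numbers were not taken as pairs in the main fits, as the labels do not say whether they mark shared batches. Correlations of the deviations of same-numbered libraries ran from -0.48 to 0.54 in replated cells and from -0.26 to 0.81 in the mutant and wild-type series. In the GSK343 and DMSO series they were all positive, at 0.18 to 0.67 over its 30 same-numbered pairs of libraries. Same-numbered libraries there did deviate together, and whether they share a batch was not tested. That series has 2 libraries a group, which deviate from their mean by opposite amounts, and only 2 pairs a comparison. With a replicate block the count was 16 in DMSO day 4 against ES cells (8), 8 in GSK343 against DMSO at day 8 (3), 9 in wild-type day 8 against day 4 (5), 2 in the change of the GSK343 effect (0) and 33 in the averaged comparison (35). The mean of mitosis minus that of replication genes, between groups, moved with a pseudocount of 0.1 to -0.37 in DMSO then GSK343 against DMSO then DMSO (-0.08) and to 0.67 in GSK343 then GSK343 against DMSO then GSK343 (0.19). With 1 library left out it ran from -0.21 to 0.03 in the first, from -0.02 to 0.40 in the second, from 0.04 to 0.33 in GSK343 then DMSO against DMSO then DMSO and from -0.26 to 0.15 in GSK343 then GSK343 against GSK343 then DMSO. Depth limits low genes most in DMSO then GSK343 libraries, where the fewest reads of a gene of the set were 0 to 4.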
